A study of Mus musculus with 4 samples.

Results

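PANETH-PRE is the name the submitters gave to 833 of the 15234 cells kept from 4 single-cell RNA libraries of mouse duodenal crypts. Its members were taken from the deposited per-cell tables by that name, and each was matched to the raw matrix of its library by barcode. They numbered 122 and 98 cells in WT replicates 1 and 2, and 11 and 602 cells in APC-KO replicates 1 and 2. Values from APC-KO replicate 1 rest on 11 cells throughout, and that library entered no call between types.

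The libraries held living cells sorted for TOM, a red reporter that Cre recombinase switches on from the Rosa26 locus. WT mice carried Atoh1CreER-T2 and R26RTom. APC-KO mice carried the same reporter with Apc fl/fl, and their labels write the driver as Atoh1Cre, whereas the series' own account gives the inducible Atoh1CreER-T2 for both genotypes. All mice had 2 intraperitoneal tamoxifen doses of 1 mg/mL, 24 h apart, and tissue was taken 12 h after the second. The sort therefore admitted cells in which the Atoh1 promoter had driven recombination, in WT and APC-KO alike. The labels name no animal, litter, age or batch for a library, so each p-value below measures the spread between these samples, which may be technical.

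Paneth cells sit at the base of small intestinal crypts and store antimicrobial proteins in large granules, among them lysozyme and the alpha-defensins, called cryptdins in mice. They also supply niche signals such as Wnt3 and Notch ligands to neighbouring stem cells. Secretory progenitors that express the transcription factor Atoh1 give rise to goblet, Paneth, endocrine and tuft cells, and Wnt signalling, which the Apc protein restrains, is required for Paneth cell maturation.

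The kept PANETH-PRE cells held 616065, 437081, 107204 and 2720248 UMIs (unique molecular identifiers, 1 per captured transcript), in the order WT replicates 1 and 2, then APC-KO replicates 1 and 2, which is kept wherever 4 values follow each other. The median cell had 4895, 4378.5, 9242 and 4002 UMIs, of which a median of 2.85%, 2.95%, 2.96% and 3.79% were mitochondrial. APC-KO replicate 1 stood apart, with 356 kept cells against 3821 to 6243 in the others, and with 5.15% of its UMIs in kept cells against 37.6% to 50.3%. No barcode was shared between PANETH-PRE cells of any pair of libraries. RNA of stromal, immune, tuft and endocrine markers was scarce among these cells, and goblet genes, which were not, are described below. The 6 stromal markers had no UMI in either WT library and 2 and 1 in the APC-KO libraries, the 6 immune markers had 2, 2, 0 and 11, and the 9 tuft markers had 12, 4, 0 and 32. The 11 endocrine markers had 191, 59, 16 and 982 UMIs, 0.0135% to 0.0361% of each library's PANETH-PRE UMIs, with Neurog3 and Tph1 at 0 in both WT libraries. Doublets were not called, and how the submitters treated them is not given in the sources used here.

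The name was checked against its 4 markers, which are Lyz1 (ENSMUSG00000069515, chromosome 10, 117287797 to 117292868, GRCm38), Mmp7 (ENSMUSG00000018623, chromosome 9, 7692090 to 7699585), Itln1 (ENSMUSG00000038209, chromosome 1, 171518122 to 171535294) and Ang4 (ENSMUSG00000060615, chromosome 14, 51763878 to 51773590). Lyz1 encodes lysozyme, Mmp7 the matrilysin that cleaves pro-defensins, Itln1 a lectin and Ang4 an antimicrobial ribonuclease. The 250 bases before a RefSeq start site of each (GRCm38.p6) are shown because these 4 genes were high together in PANETH-PRE and PANETH cells.
Lyz1 (chr10:117292869-117293118, minus strand): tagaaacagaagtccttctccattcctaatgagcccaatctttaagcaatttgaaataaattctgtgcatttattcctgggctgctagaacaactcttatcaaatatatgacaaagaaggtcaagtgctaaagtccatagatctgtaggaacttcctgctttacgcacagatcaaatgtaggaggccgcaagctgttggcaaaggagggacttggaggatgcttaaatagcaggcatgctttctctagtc
Mmp7 (chr9:7691840-7692089, plus strand): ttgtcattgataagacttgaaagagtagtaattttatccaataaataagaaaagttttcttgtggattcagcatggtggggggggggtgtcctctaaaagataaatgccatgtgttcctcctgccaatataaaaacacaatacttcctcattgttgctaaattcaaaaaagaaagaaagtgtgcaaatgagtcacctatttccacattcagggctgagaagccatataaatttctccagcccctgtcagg
Itln1 (chr1:171535295-171535544, minus strand): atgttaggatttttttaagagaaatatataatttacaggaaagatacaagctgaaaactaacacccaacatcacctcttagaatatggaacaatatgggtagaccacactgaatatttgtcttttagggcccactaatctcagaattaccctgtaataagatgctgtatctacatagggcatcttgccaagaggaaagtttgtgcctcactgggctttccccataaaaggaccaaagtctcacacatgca
Ang4 (chr14:51773591-51773840, minus strand): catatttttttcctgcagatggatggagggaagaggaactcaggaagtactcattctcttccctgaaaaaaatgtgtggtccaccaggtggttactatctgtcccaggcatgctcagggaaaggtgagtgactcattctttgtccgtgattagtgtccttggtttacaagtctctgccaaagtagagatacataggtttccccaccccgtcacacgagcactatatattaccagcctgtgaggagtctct
None of these 4 windows held CTTTGA, the core letters read by the Wnt effectors TCF and LEF, or CAGCTG, an E-box, on either strand. A second RefSeq start of Mmp7, whose window of chromosome 9, 7692091 to 7692340, is not printed, had 1 match to CTTTGA, 246 bases before that start. Among 32851 RefSeq windows of that length 13.8% held CTTTGA and 13.0% held CAGCTG. A match is a description, and no match says only that these letters are not in that window.

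All 4 markers ranked second of the 12 type names in PANETH-PRE, after PANETH. Levels are given as scaled CPM, UMI counts of the summed cells of 1 type in 1 library per 1000000 UMIs after TMM scaling over all sums. Lyz1 was at 14504 and 17552 scaled CPM in the WT libraries and at 4679 and 2140 in the APC-KO libraries. In PANETH cells of the same libraries Lyz1 was at 108546, 101446, 39642 and 44524, and in GP cells it was at 653.6, 842.3, 152.7 and 275.7. By these sums of Lyz1, PANETH-PRE therefore lay between these types in every library. In APC-KO replicate 1 PANETH had 16 cells and GP 7, and the median Paneth share per cell, given below, was lower in PANETH than in PANETH-PRE. The WT and APC-KO levels of Lyz1 in PANETH-PRE did not overlap. Mmp7 was at 6291, 5677, 3801 and 2700 scaled CPM in PANETH-PRE and at 799.2 to 999.4 in GP.

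**Figure D1:**
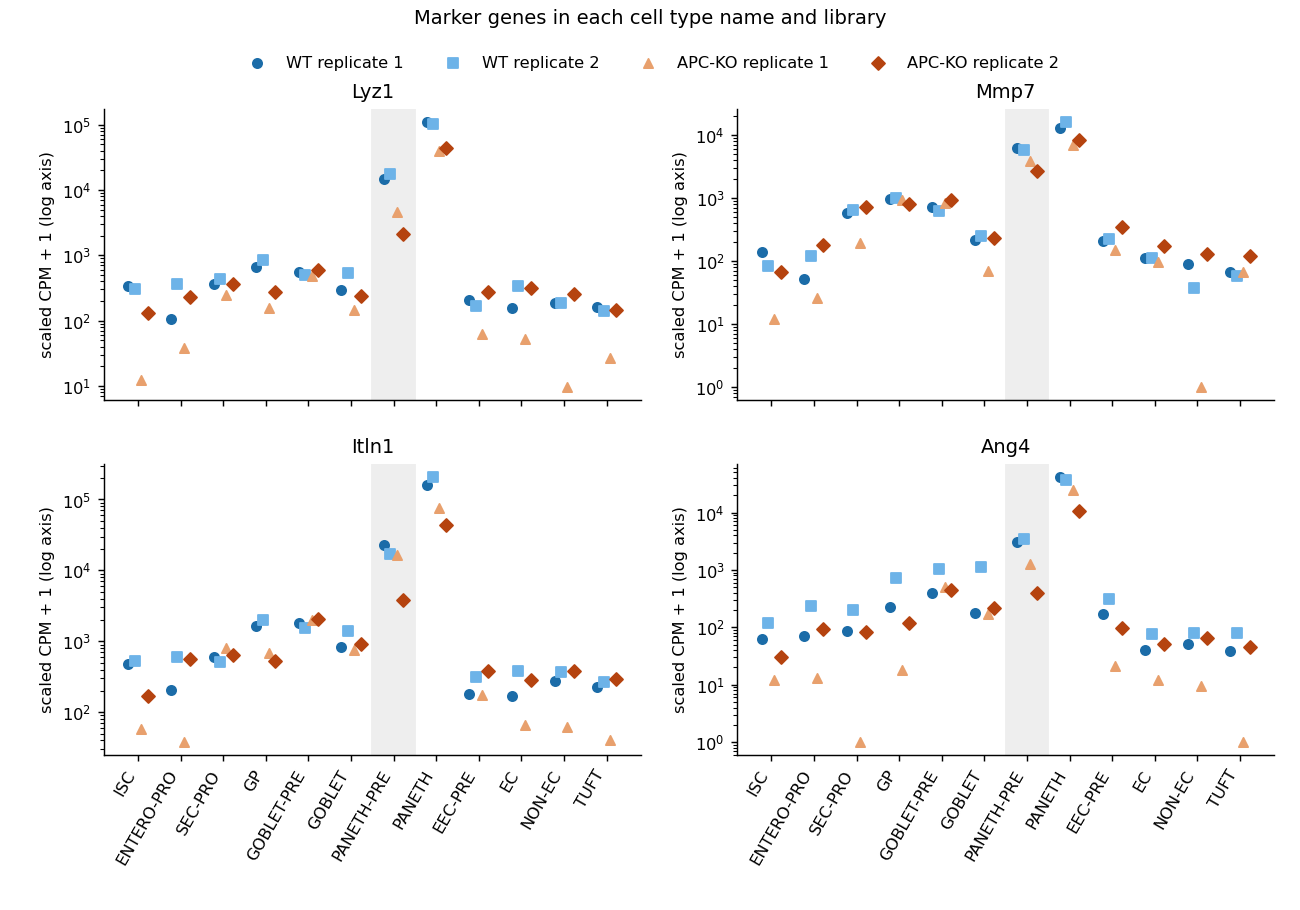
Scaled CPM plus 1 (log axis) of Lyz1, Mmp7, Itln1 and Ang4 in each of the 12 type names, with 1 point per library. The shaded PANETH-PRE column lies below PANETH and above the other 10 names in the means of all 4 genes, and APC-KO replicate 1 rests on few cells in most types.

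Over the 39 sums of at least 20 cells from the 12 types, the genes whose level tracked Lyz1 most closely were Itln1 (Pearson r = 0.973), Defa17 (0.969), Defa24 (0.966), Defa3 (0.951) and the lipase Pnliprp2 (0.944), out of 5190 genes compared. These sums share libraries and cells named from the same counts, so r is a description.

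The first comparison asked how PANETH-PRE differed from GP, SEC-PRO and PANETH, the names nearest to it. Because the names were given from these same counts, the differences are descriptions with no test. A gene was called when its log2 ratio of scaled CPM plus 5 was 2-fold or more in the same direction in WT replicates 1 and 2 and APC-KO replicate 2, the libraries with at least 20 cells of each type, and when the higher type had at least 50 scaled CPM. Against GP, 41 of 3152 genes were higher in PANETH-PRE (1.3%) and 16 were lower (0.508%). Against SEC-PRO, 60 of 3185 were higher (1.88%) and 86 lower (2.7%). Against PANETH, 2 of 3047 were higher (0.0656%) and 46 lower (1.51%). No gene was called in 1 direction against all of these types, so PANETH-PRE had no gene that set it above or below all 3 by this rule.

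Most granule genes measured were higher than in GP and lower than in PANETH. Of 12 granule genes 10 were measured against GP and 7 were higher in PANETH-PRE, namely the 4 markers, colipase (Clps), Pnliprp2 and Habp2, a hyaluronan-binding protease. The median log2 ratio of the 10 was 3.77, 2.98, 3.64 and 1.73 in the 4 libraries, beside -0.15, -0.14, 0.21 and -0.05 over all genes measured. Against SEC-PRO 9 of 10 were higher, and against PANETH 9 of 11 were lower, beside 1.88% and 1.51% of all genes measured. Pnliprp2 showed the grading, with 7.39, 13.6, 17.0 and 7.30 scaled CPM in GP, 254.2, 234.7, 62.7 and 30.4 in PANETH-PRE, and 3314, 3969, 708.9 and 942.3 in PANETH. Mptx2, a pentraxin of mature Paneth cells, was at 610.1, 1595, 41.8 and 27.3 in PANETH-PRE and at 31413, 34115, 18409 and 8056 in PANETH, a mean log2 ratio of -6.02 (SD 1.80, n = 3 libraries).

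The alpha-defensins differed in how far their PANETH-PRE level lay below that of PANETH. Of 22 genes 10 were measured against GP and 5 were higher in PANETH-PRE, Defa17, Defa24, Defa29, Defa3 and Defa30, and the same 5 were higher than in SEC-PRO. Against PANETH 16 were measured and 12 were lower, beside 1.51% of all genes measured. Members low in PANETH-PRE, such as Defa21 and Defa22, passed the minimum only through PANETH and could only be called lower. Defa24, the most abundant, was at 98960, 61802, 78303 and 31493 scaled CPM in PANETH-PRE and at 824024, 585107, 523410 and 317814 in PANETH. Totals on this scale can pass 1000000 in PANETH because its TMM factors are 0.33 to 0.61. Defa30 was further behind, at 2708, 3335, 2903 and 1495 in PANETH-PRE against 414357, 403007, 287286 and 105743 in PANETH, a mean log2 ratio of -6.77 (SD 0.57, n = 3 libraries). Defa21 and Defa22 had at most 14.2 and 10.4 scaled CPM in PANETH-PRE, while WT PANETH cells held 9104 and 1635 of Defa21 and 11934 and 1426 of Defa22. Defa26 and Defa36 were not called against GP, although their WT levels in PANETH-PRE, 447.8 and 315.3 for Defa26 and 545.6 and 251.3 for Defa36, were above those of Defa29 (95.8 and 87.7), because APC-KO replicate 2 held 0.76 and 1.14. The last 300 bases of most defensin transcripts are 98% to 100% identical to another defensin, so their reads can be split between copies, and single members are uncertain. Defa29 matched its nearest among the 22 symbols compared at 52.7%, and defensin-like genes with model symbols were not compared.

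Of niche signals and surface genes, Wnt3 and Cd24a were called higher than in GP and in SEC-PRO. Wnt3, a Wnt ligand that sustains stem cells, was at 176.0, 158.8, 135.8 and 73.3 scaled CPM in PANETH-PRE, at 22.2, 27.7, 17.0 and 12.2 in GP and at 203.7, 173.7, 59.1 and 179.0 in PANETH. On this scale the WT levels of Wnt3 thus differed little between PANETH-PRE and PANETH, unlike those of the granule genes. TMM scaling lowered the WT log2 ratios against PANETH by 1.32. On plain CPM Wnt3 was therefore higher in WT PANETH-PRE than in WT PANETH, but it was not called on that scale. Ephb3, a Wnt-induced receptor that positions cells in the crypt, was at 103.6, 94.8, 41.8 and 61.5 in PANETH-PRE and at 10.0 to 17.0 in GP. The Notch ligand Dll1 went the other way along the series, at 193.3, 203.1, 135.7 and 165.6 in GP, 76.3, 106.7, 125.3 and 76.7 in PANETH-PRE and 30.6, 23.7, 23.6 and 23.3 in PANETH. Dll1 and Ccnd1, which encodes cyclin D1, were the 2 genes called higher in PANETH-PRE than in PANETH, with mean log2 ratios of 1.56 (SD 0.38, n = 3 libraries) and 1.35 (SD 0.19, n = 3 libraries).

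Combining the calls, 14 genes were higher than in GP and lower than in PANETH, among them the 4 markers, 5 defensins, Clps, Habp2 and Pnliprp2. Another 27 were higher than in GP and not called against PANETH. These included Wnt3, Ephb3, Cd24a, the lectin Reg4, the ribonuclease Rnase1, the chemokine Ccl9 and Samd5. Samd5 had 197.5, 106.7, 20.9 and 51.6 scaled CPM in PANETH-PRE, at most 3.96 in GP, and 360.5, 273.6, 165.4 and 241.6 in PANETH. A further 32 genes were lower than in PANETH and not called against GP, among them 7 defensins, Mptx2, Nupr1, Lgr5, the BMP decoy receptor Bambi and the lectin Reg3g.

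**Figure D2:**
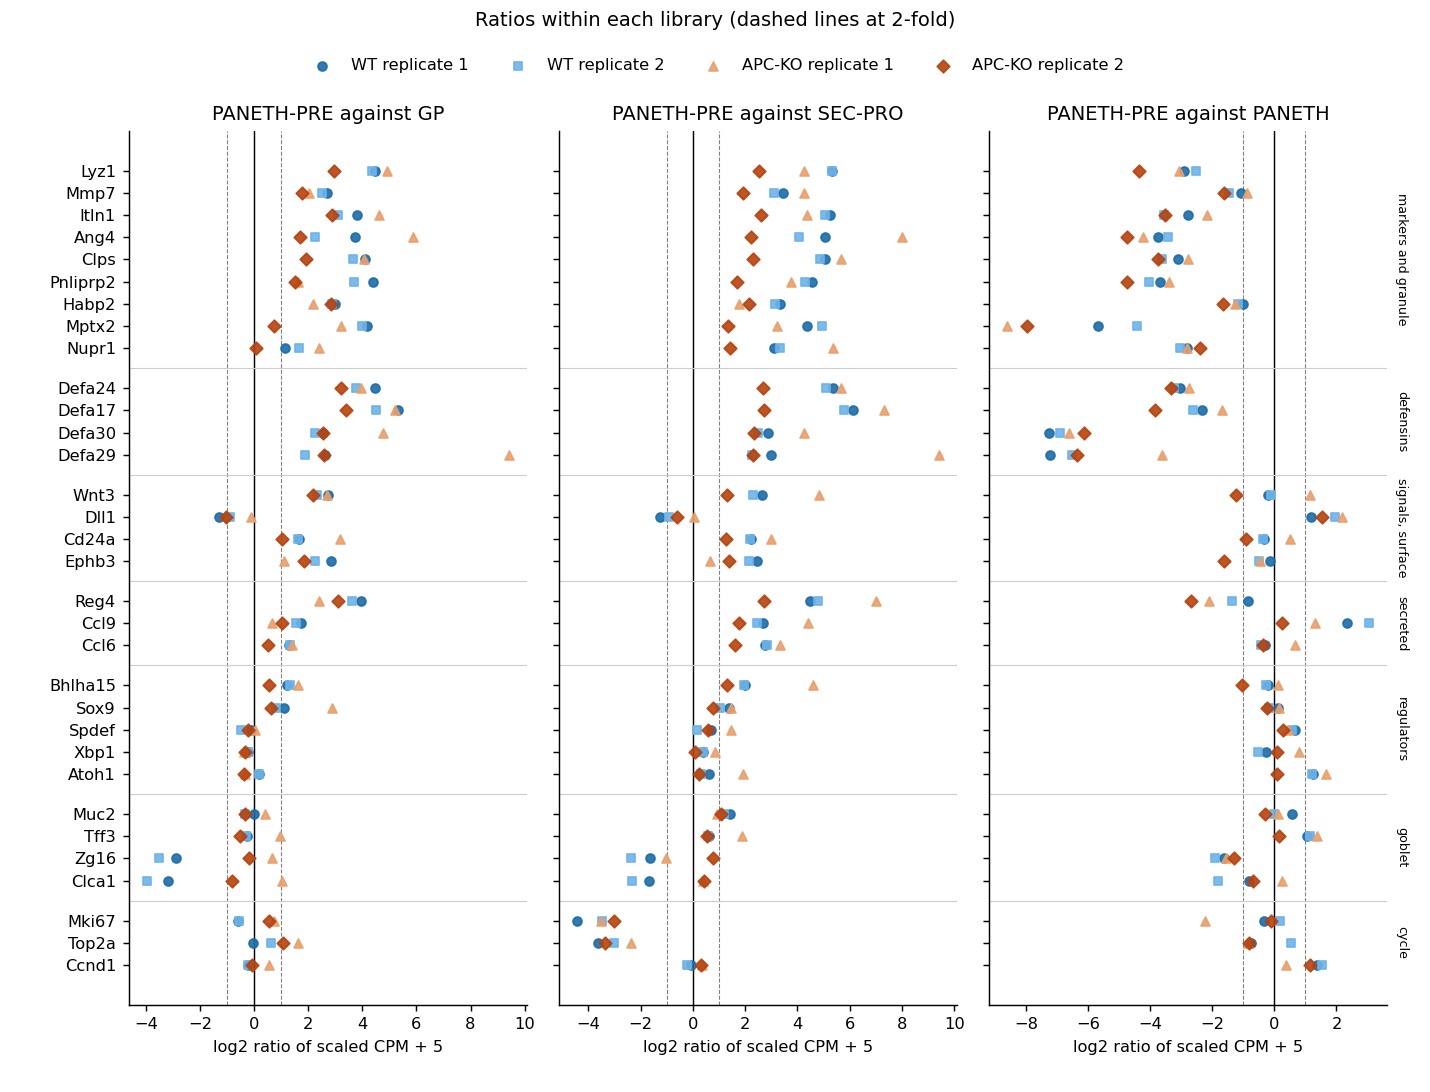
Log2 ratio of scaled CPM plus 5 between PANETH-PRE and GP, SEC-PRO or PANETH (x axes) for genes grouped by role, with 1 point per library and dashed lines at 2-fold. Granule genes and defensins lie right of 0 against GP and SEC-PRO and left of 0 against PANETH, while Zg16 and Clca1 lie far left against GP in the WT libraries only.

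The contrast with PANETH depended on the scale, since a few granule transcripts make up most PANETH UMIs. TMM scaling lowered the log2 ratios by 1.32, 1.32, 0.93 and 0.68 in the 4 libraries relative to plain CPM. On plain CPM 393 genes were higher in PANETH-PRE and 25 lower. Dll1 and Ccnd1 stayed among the higher and all 25 lower genes were among the 46, including Lyz1, Itln1, Ang4 and 11 defensins. Mmp7 (mean log2 ratio -0.29 on plain CPM), Zg16 (-0.51) and Lgr5 (-0.49) were not called on that scale. The shifts against GP and SEC-PRO were 0.01 to 0.84. On plain CPM 36 genes were higher and 18 lower than in GP, and 46 higher and 120 lower than in SEC-PRO.

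Cell cycle genes set PANETH-PRE apart from SEC-PRO. All 15 measured G2/M genes and 8 of 13 measured S-phase genes were lower in PANETH-PRE, beside 2.7% of all genes measured. Genes low in PANETH-PRE, such as Ccnb1 and Cdc20, passed the minimum only through SEC-PRO and could only be called lower. None was called higher, which for such genes says nothing. Mki67, a marker of cycling cells, was at 21.5, 26.1, 31.3 and 69.5 scaled CPM in PANETH-PRE and at 569.1, 342.0, 412.7 and 600.9 in SEC-PRO. The histone gene Hist1h1b was at 19.6, 21.3, 10.4 and 22.02 against 411.3, 268.7, 437.0 and 415.2. Against GP 1 S-phase gene and no G2/M gene reached the level to be measured, so PANETH-PRE and GP were both low in these genes.

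Goblet genes were seldom called between PANETH-PRE and GP. Of 17 goblet genes measured, 1 was higher in PANETH-PRE than in GP, the chemokine Ccl9, and none was called lower. Zg16 and Clca1 lay far below GP in both WT libraries, with Zg16 at 837.0 and 552.3 scaled CPM against 6233 and 6445 in GP and Clca1 at 142.8 and 123.3 against 1340 and 2014, but not 2-fold below it in APC-KO replicate 2, and so were not called. Muc2, the major intestinal mucin, was at 4922, 2968, 3279 and 3561 scaled CPM in PANETH-PRE and at 5005, 3807, 2511 and 4471 in GP. The groups overlap, and so did those of Tff3, a trefoil peptide. Against SEC-PRO 6 of 17 were higher, Ccl6, Ccl9, Fxyd3, Guca2a, Muc2 and Spink4. On plain CPM Ccl9 was not called against GP, Rep15 was called lower, and Fxyd3 and Muc2 were not called against SEC-PRO. Ccl9 was the goblet-list gene most biased to PANETH-PRE, at 2394, 2332, 1117 and 1200 scaled CPM against 715.6, 796.3, 712.6 and 591.6 in GP and 472.5, 277.4, 449.0 and 1007 in PANETH.

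No secretory regulator was called against GP or PANETH on scaled CPM. Of 13 factors 10 were measured against GP and 8 against PANETH, and none was called. Sox9, which is required for Paneth cells, was at 414.6, 327.1, 407.3 and 225.2 scaled CPM in PANETH-PRE, 192.8, 183.9, 50.9 and 145.5 in GP, and 378.8, 373.6, 366.3 and 268.5 in PANETH. Bhlha15, a factor of secretory cell maturation also known as Mist1, was called higher than in SEC-PRO, at 131.0, 137.5, 114.9 and 75.9 against 29.3, 31.6, 0 and 27.3. Atoh1, whose promoter drove the recombinase, was at 203.4, 189.6, 198.4 and 105.9 in PANETH-PRE and ranked second of the 12 names after GOBLET. All 20 genes of endoplasmic reticulum folding were measured and none was called against any of the 3 types. On plain CPM Ssr2 of that list and the factor Cdx1 were called higher than in PANETH. The folding genes took 1.57%, 1.56%, 1.19% and 1.10% of UMIs in PANETH-PRE and 0.427%, 0.469%, 0.460% and 0.739% in PANETH.

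The genes lower than in GP were few. Scin, an actin-severing protein of secretory cells, was at 62.6, 30.8, 135.8 and 125.3 scaled CPM in PANETH-PRE and at 347.1, 539.0, 152.7 and 473.5 in GP, a mean log2 ratio of -2.73 (SD 1.07, n = 3 libraries). Others were Gimd1, Rasa4, Tnfaip8, Sh3bgrl3, Gadd45b, Trim31, E2f2, Fer1l6 and, beyond the 10 named by rank, the keratin Krt20, typical of mature villus cells.

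Across whole profiles, GP was the closest type name to PANETH-PRE within 3 of the 4 libraries. Pearson r of log2 levels over 5190 genes was 0.945, 0.940 and 0.968 with GP in WT replicates 1 and 2 and APC-KO replicate 2. PANETH followed in WT (0.916 and 0.920) and SEC-PRO in APC-KO replicate 2 (0.957). In APC-KO replicate 1 GOBLET-PRE was closest, at 0.871, where GP had 7 cells and SEC-PRO 5. The values share each library's depth, and larger sums give higher r.

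Single cells were then described after each had been thinned to 2000 UMIs, which left out 2, 0, 0 and 12 cells. A UMI of Lyz1 was found in 80.0%, 80.6%, 100% and 63.1% of PANETH-PRE cells (exact 95% binomial intervals 71.7% to 86.7%, 71.4% to 87.9%, 71.5% to 100% and 59.0% to 67.0%). Free RNA gives such UMIs too. In EC cells, which carry endocrine genes, Lyz1 was found in 29.2%, 31.4%, 8.89% and 21.7%. Mmp7 was found in 100%, 100%, 90.9% and 86.9% of PANETH-PRE cells and in 16.7% to 19.7% of EC cells. Without thinning, Lyz1 was found in 90.8%, 91.8%, 100% and 77.1% of PANETH-PRE cells. Both markers were thus above the background share in every library. Defa24 was found in 97.96% to 100% of PANETH-PRE cells but also in 57.8% to 91.6% of EC cells, so its presence in a cell is close to background and its level is the informative value. Intervals cover counting error only.

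The Paneth program took a share of UMIs that varied widely between PANETH-PRE cells. Paneth genes, the granule list and the alpha-defensins together, had a median share of 7.35%, 5.85%, 7.9% and 2.98% of a cell's UMIs. The same share was 0.25% to 0.45% in GP cells and 58.5%, 58.9%, 1.4% and 31.1% in PANETH cells. Within WT PANETH-PRE cells it ran from 0.4% to 46.2% and from 0.35% to 57.95%. PANETH-PRE thus covered most of the range between GP and PANETH. In APC-KO replicate 1 the 16 cells named PANETH had a median of 1.4%, below that of its PANETH-PRE cells, which goes against the order of the other 3 libraries.

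The goblet list took a median of 9.25%, 6.33%, 9.6% and 7.6% of UMIs in PANETH-PRE cells, close to GP at 7.25% to 9.6%, and 1.85% to 8.03% in PANETH. Across PANETH-PRE cells the Paneth and goblet shares went together, with Spearman rho of 0.49, 0.39, 0.76 and 0.39 in the 4 libraries, over 120, 98, 11 and 590 cells. Lyz1 and Muc2 were found in the same cell in 77.5%, 76.5%, 90.9% and 60.7% of PANETH-PRE cells, against 6.67% to 11.9% of EC cells. Cells of 1 library share its free RNA and preparation, so these values are descriptions.

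Cells with at least 3 UMIs of S-phase and G2/M genes made up 0.833%, 4.08%, 0% and 23.2% of PANETH-PRE cells. The exact 95% interval of the 0 of 11 cells in APC-KO replicate 1 reaches 28.5%. Without thinning, the shares were 25%, 17.35%, 63.6% and 43.05%. SEC-PRO had 76.1% to 100% and GP 0% to 9.82%. APC-KO replicate 2 was above both WT libraries in its share of PANETH-PRE cells with cycle UMIs, while the 11 cells of APC-KO replicate 1 do not place that library. Across cells, the Paneth and cycle shares had Spearman rho of -0.11, -0.06, -0.85 and -0.38. Both are shares of the same thinned UMIs, so a higher Paneth share leaves fewer for cycle genes and can by itself make rho negative.

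**Figure D3:**
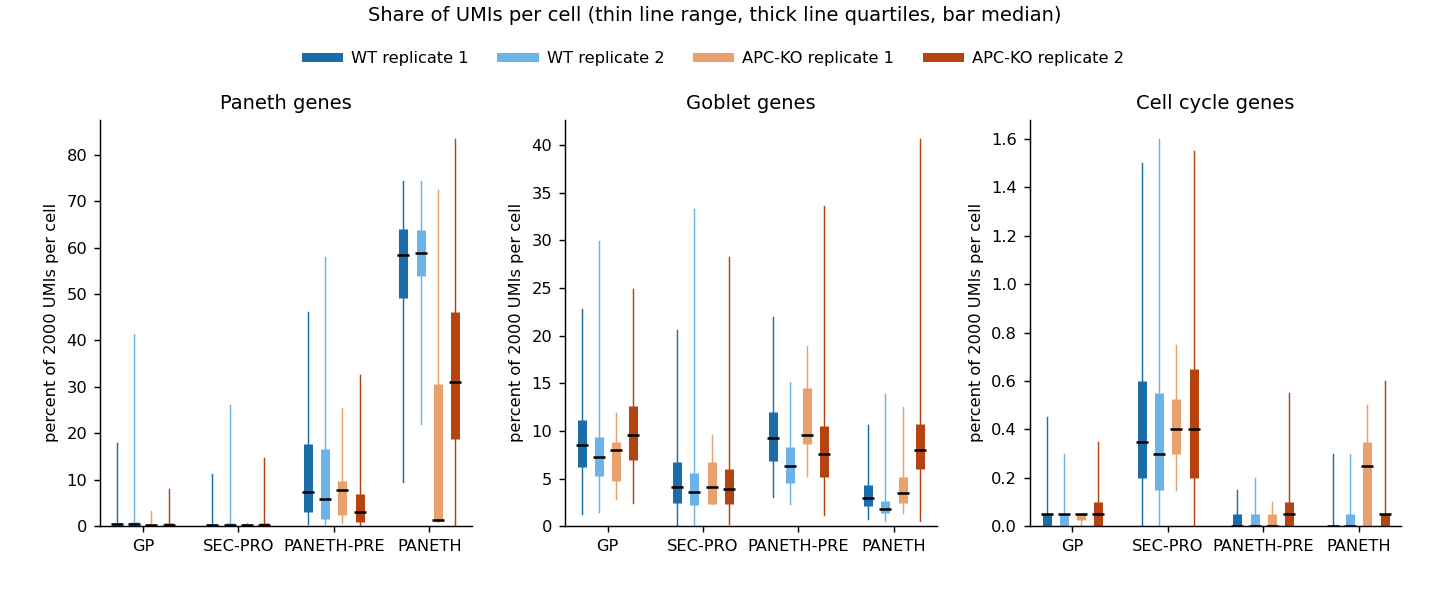
Percent of 2000 thinned UMIs per cell from Paneth, goblet and cell cycle genes (y axes) in GP, SEC-PRO, PANETH-PRE and PANETH, per library, as range, quartiles and median. PANETH-PRE medians for Paneth genes are 2.98% to 7.9%, above GP and, except in APC-KO replicate 1, below PANETH.

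To see whether the name held the same mix of cells in each library, each PANETH-PRE cell was set against the WT profile of each of the 12 types, WT cells against the profile of the other WT library. PANETH-PRE was nearest for 14.8%, 35.7%, 54.5% and 36.5% of the cells in the 4 libraries. PANETH was nearest for 54.9%, 37.8%, 9.09% and 9.30%, and GP for 29.5%, 22.4%, 27.3% and 27.2%. SEC-PRO was nearest for 0.82% and 4.08% in WT and for 9.09% and 17.9% in APC-KO, where ISC was nearest for another 8.31% of replicate 2. The nearest types therefore differed between libraries, with more PANETH-nearest cells in WT and more SEC-PRO-nearest cells in APC-KO replicate 2. Only WT profiles were used. For APC-KO cells, a different mix and a genotype difference in the same genes thus cannot be told apart by these shares. These shares depended on the measure. With genes of at least 200 CPM PANETH-PRE was nearest for 66.4% and 64.3% of WT cells and PANETH for 11.5% and 9.18%, against 0% of the cells of either APC-KO library.

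**Figure D4:**
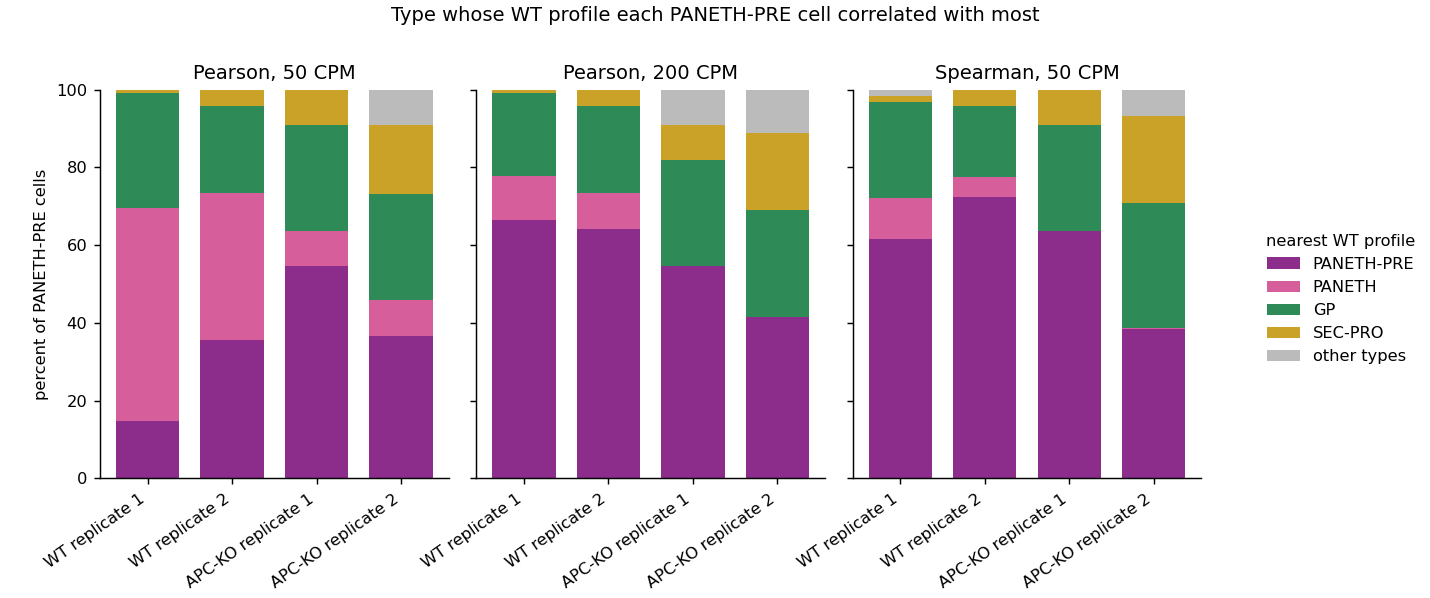
Percent of PANETH-PRE cells in each library (stacked bars, y axis) by the type whose WT profile they correlated with most, under 3 ways of measuring likeness. The SEC-PRO part is 17.9% to 22.4% in APC-KO replicate 2 and at most 4.08% in the WT libraries under all 3.

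PANETH-PRE made up 2.53% and 2.56% of the kept cells of the WT libraries and 3.09% and 9.64% of those of the APC-KO libraries (exact 95% intervals 2.11% to 3.02%, 2.09% to 3.12%, 1.55% to 5.46% and 8.92% to 10.4%). The mean difference was 3.82 percentage points and rested on APC-KO replicate 2, without which it was 0.54. The two-sided exact permutation test gave p = 0.33 (n = 2 per group), the smallest this design allows. Among PANETH-PRE and PANETH cells together, PANETH-PRE were 53.5%, 32.9%, 40.7% and 68.7%. The WT libraries differed widely from each other here, and the APC-KO values lay on either side of WT replicate 1. The TOM+ sort and the kept-cell rule can set such shares.

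The genotype comparison asked which genes differed in PANETH-PRE cells with floxed Apc, on UMIs summed per library. The edgeR quasi-likelihood test called 64 of 5460 genes at a Benjamini-Hochberg adjusted p of 0.05 (1.17%), 28 higher in APC-KO (0.513%) and 36 lower (0.659%), and 650 had an unadjusted p under 0.05. Of the 64, 59 had WT and APC-KO levels that did not overlap, as had 36.9% of all genes tested. Leaving out a WT library lowered the count to 32 (replicate 1) or 15 (replicate 2). Leaving out an APC-KO library gave 509 (replicate 1) or 36 (replicate 2). With only the cells nearest to the PANETH-PRE profile it was 2 of 1760 genes. That choice uses the same genes, which can lessen differences in them, and it left 18, 35, 6 and 220 cells. The cause of the lower count was not tested. The DESeq2 Wald test called 19, with no adjusted p for 4552 genes.

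Genes of the Paneth granule made up the clearest group. All 10 tested members of the granule list were lower in APC-KO with levels that did not overlap, and 7 passed the test, Lyz1, Ang4, Habp2, Mptx1, Mptx2, Nupr1 and Pnliprp2. The median log2 fold change over the 10 was -1.72, beside -0.01 over all genes tested. Lyz1 was at 14504 and 17552 scaled CPM in WT and at 4679 and 2140 in APC-KO, -2.25 on the log2 scale with an SE of 0.40 (edgeR, adjusted p 0.00200). It was not called without WT replicate 2 (-2.10). Mptx2 went from 610.1 and 1595 to 41.8 and 27.3 (log2 fold change -5.22, SE 0.47, adjusted p 8.81e-08, edgeR), and Mptx1, a related pentraxin, from 346.1 and 412.4 to 208.9 and 4.94. Mmp7 had 6291 and 5677 against 3801 and 2700, and Itln1 23054 and 17275 against 16626 and 3846, with adjusted p of 0.265 and 0.414 (edgeR).

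Cells nearest to PANETH were, as above, a larger share in both WT libraries than in either APC-KO library, and the part of this in the falls was not tested. The median over the 10 was -0.90 when APC-KO replicate 2 was left out and -2.65 when replicate 1 was. With only the cells nearest to the PANETH-PRE profile it was -0.37 over the 8 members tested, beside -0.21 over all genes tested there. A smaller share of granule-rich cells under the name and less granule RNA per cell cannot be told apart from these sums.

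Defensins moved in both directions. Of 12 tested, 5 fell (Defa17, Defa23, Defa26, Defa34 and Defa36) and Defa29 rose, and the median log2 fold change was -0.55. Over the 5 tested with only the cells nearest to the PANETH-PRE profile, the median was 1.07, beside -0.21 over all genes there. Defa29 was at 95.8 and 87.7 scaled CPM in WT and at 3415 and 495.1 in APC-KO, 4.36 on the log2 scale with an SE of 0.56 (edgeR, adjusted p 1.99e-05), which was 2.43 without APC-KO replicate 1. Defa29 in EC cells was at 9.31, 14.51, 16.3 and 64.1, far below PANETH-PRE of the same libraries. Defa23 had 18 and 20 UMIs in WT and none in APC-KO, at least 37.0-fold lower with 3 UMIs over the APC-KO group as the floor. The last 300 bases of Defa23, Defa34 and Defa36 matched Defa31, Defa5 and Defa37 at 100%. Their falls, and this bound, therefore need not belong to the single genes named. Defa26 fell from 447.8 and 315.3 to 41.8 and 0.76, and Defa36 from 545.6 and 251.3 to 208.9 and 1.14. Defa24 and Defa30, the most abundant in PANETH, had overlapping levels and were not called. The WT libraries also differed from each other in single defensins, with 0 and 117 UMIs of Defa35 and 1 and 28 of Defa27 in their PANETH-PRE cells.

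Other genes fell too. The naming rule passes over model symbols, among them the gene with the lowest p, Gm7861, named here after its values were seen, with 874.1 and 943.4 scaled CPM in WT and 0 and 2.28 in APC-KO (log2 fold change -8.62, SE 0.51, edgeR adjusted p 1.5e-11). AY761184 and Gm14851 of the same chromosome 8 region fell by 3.88 and 4.49 on the log2 scale. The lectin gene Reg4 went from 3178 and 2157 scaled CPM to 647.5 and 541.5 (log2 fold change -2.18, SE 0.33, adjusted p 0.000239, edgeR). Copz2, a coatomer subunit, went from 50.8 and 49.8 to 31.3 and 2.66, and Casc4 from 101.7 and 71.1 to 41.8 and 12.2. The 20 genes of endoplasmic reticulum folding all had negative log2 fold changes, with a median of -0.52, 16 of them without overlap, beside 36.9% of all genes tested, and none passed the test. Of niche signals 5 were tested, all negative and none called, with Wnt3 at 176.0 and 158.8 against 135.8 and 73.3 (adjusted p 0.129, edgeR).

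**Figure D5:**
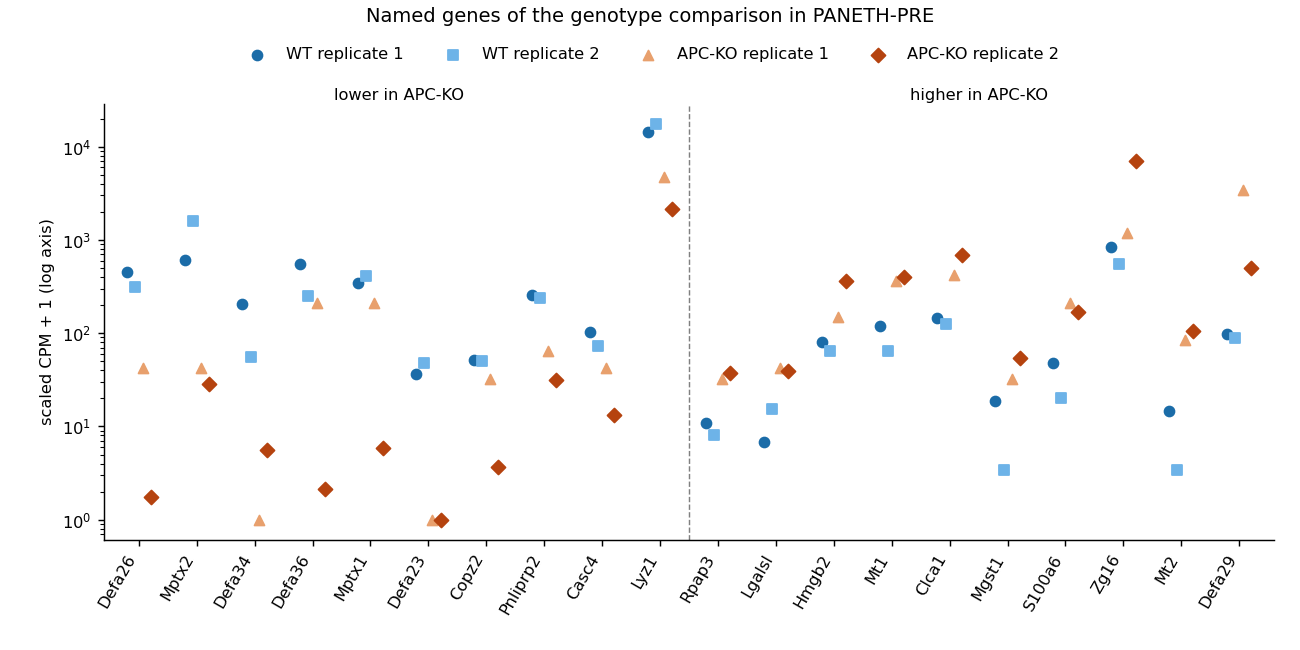
Scaled CPM plus 1 (log axis) in PANETH-PRE cells of the 4 libraries for the 10 named falls and 10 named rises of the genotype comparison. WT and APC-KO points do not overlap for these 20 genes because the naming rule required it, and the APC-KO libraries lie far apart for Defa36, Mptx1 and Zg16.

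The rises named by rank included both metallothioneins, zinc-binding stress proteins. Mt2 was at 13.7 and 2.37 scaled CPM in WT and at 83.5 and 105.2 in APC-KO (log2 fold change 3.56, SE 0.45, adjusted p 1.99e-05, edgeR), and Mt1 at 119.3 and 64.0 against 365.5 and 399.5 (2.06, SE 0.30, adjusted p 0.000169, edgeR). Mt2 was at 2.48, 1.53, 2.71 and 26.8 in EC cells, so it was also higher there in APC-KO replicate 2. S100a6, a calcium-binding protein, went from 46.9 and 19.0 to 208.9 and 167.1, and the antioxidant enzyme gene Mgst1 from 17.6 and 2.37 to 31.3 and 52.8. Hmgb2, a chromatin protein of cycling cells, went from 80.2 and 64.0 to 146.2 and 363.0. Lgalsl and Rpap3 completed the list, with 3 to 6 UMIs per WT library. Counts were also low for Mt2, with 7, 1, 8 and 277 UMIs in the 4 libraries, and for Mgst1, with 9, 1, 3 and 139. Mki67 rose by 1.47 on the log2 scale (SE 0.37, adjusted p 0.0482, edgeR), from 21.5 and 26.1 to 31.3 and 69.5, and was not called without WT replicate 1, WT replicate 2 or APC-KO replicate 2 (0.40).

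Of 17 goblet genes 2 rose and none fell, with a median of -0.11. The zymogen granule lectin Zg16 was at 837.0 and 552.3 scaled CPM in WT and at 1191 and 7062 in APC-KO (log2 fold change 2.59, SE 0.49, adjusted p 0.00402, edgeR). It was 0.77 and not called without APC-KO replicate 2, nor was it called without WT replicate 2 or with the DESeq2 Wald test. Clca1, a protein of the goblet mucus, was at 142.8 and 123.3 against 417.7 and 687.7 (2.11, SE 0.31, adjusted p 0.000166, edgeR). Free RNA of both genes was high. Zg16 was at 821.4, 912.7, 460.7 and 2987 in EC cells and at 595.2, 576.9, 365.7 and 7011 in TUFT cells, so PANETH-PRE lay close to EC in WT replicate 1, below EC in WT replicate 2 and beside TUFT in APC-KO replicate 2. Clca1 was at 99.3, 125.3, 59.6 and 238.1 in EC cells and at 83.8, 115.9, 0 and 604.0 in TUFT cells. Both stayed called with 5% of each sum subtracted in the profile of barcodes of 1 to 50 UMIs. That fixed share was assumed, not measured, and need not cover the free RNA of these genes.

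Wnt target genes did not move as a group. Of 18 targets 7 were tested, 5 with negative and 2 with positive log2 fold changes, and none passed. The median was -0.35, and it was 0.13 without WT replicate 1. Axin2, a standard readout of the pathway, was at 39.1 and 45.0 scaled CPM in WT and at 41.8 and 58.5 in APC-KO, and Lgr5 was at 27.4 and 9.48 against 20.9 and 27.7. Both overlapped. Olfm4, a stem cell gene, was called (log2 fold change 1.91, SE 0.48, adjusted p 0.0464, edgeR) but its levels of 123.2 and 59.3 against 31.3 and 525.1 overlapped, and without APC-KO replicate 2 it was -1.56.

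Whether these differences were particular to PANETH-PRE was tested as the type by genotype term in 1 edgeR fit of 16 sums with the library as a block. The genotype effect in PANETH-PRE differed from that in GP for 47 of 9396 genes (0.5%), from that in SEC-PRO for 100 (1.06%) and from that in PANETH for 114 (1.21%). The 3 tests share the PANETH-PRE sums. The DESeq2 Wald test called 2, 1 and 0, and 365, 251 and 347 genes had an unadjusted p under 0.05 by that test. With WT replicate 1 left out edgeR called 6, 6 and 10, and with WT replicate 2 left out it called 3, 0 and 3, the 0 beside 223 genes at an unadjusted p under 0.05. With APC-KO replicate 1 left out it called 102, 159 and 223, and with APC-KO replicate 2 left out 32, 4 and 27. The 2 genes that DESeq2 called against GP were among the 47. Of the 64 genes called for genotype in PANETH-PRE, 13, 26 and 15 also differed in these terms.

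Zg16 and Clca1, chosen after their values were seen, differed from GP in this term. In WT, Zg16 was at 6233 and 6445 scaled CPM in GP and at 837.0 and 552.3 in PANETH-PRE, while in APC-KO replicate 2 it was at 8010 and 7062. The genotype effect was larger in PANETH-PRE than in GP by 3.22 on the log2 scale (SE 0.38, adjusted p 1.98e-14, edgeR) for Zg16 and by 3.1 (SE 0.33, adjusted p 5.33e-17, edgeR) for Clca1. Both stayed called without each library in turn, with 2.97 to 3.83 and 2.76 to 4.64, and with the DESeq2 Wald test. GP rests on 7 cells in APC-KO replicate 1, where Zg16 was at 763.6. The PANETH-PRE levels of Zg16 lie near those given above for EC cells in WT and for TUFT cells in APC-KO replicate 2, and the part of free RNA in this term was not tested.

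Lyz1 fell more in PANETH-PRE than in SEC-PRO, by 2.12 on the log2 scale (SE 0.48, adjusted p 0.00237, edgeR), and this was not called without either WT library, without APC-KO replicate 2 (-1.07) or with the DESeq2 Wald test. It was not called against GP or PANETH, where Lyz1 was also at lower levels in both APC-KO libraries. Mptx2 fell more than in GP by 3.18 (SE 0.65, adjusted p 0.000858, edgeR), where GP held 110, 329, 0 and 24 UMIs. It was not called without either WT library, and without APC-KO replicate 2 the sign turned, to 4.64.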

How the data were processed

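Raw UMI counts of 4 10x libraries and 2 per-cell tables of type names were used as the authors deposited them. Cell Ranger 3.0.2, STAR and the mm10 build are named per the submitters' processing notes. The deposited per-cell tables also hold a percent of mitochondrial UMIs and other values, namely the type names, per the file headers. The cells kept are those in the authors' tables; how doublets were treated is not given in the sources used here, and no doublet caller was run. Cells were matched to the matrices by library name and barcode.

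Counts were summed per library and type, and TMM factors were computed over all sums of at least 5 cells (edgeR 4.0.16, limma 3.58.1, R 4.3.3). Types were compared within libraries, with no test, by log2 ratios with a pseudocount of 5 CPM. Genotypes were compared with edgeR's quasi-likelihood test, and the type by genotype term in 1 fit with a library block, at a Benjamini-Hochberg adjusted p of 0.05. Tested on simulated data with log2 changes of 2, the genotype fit recovered 163 of 184 changed genes with 5 false calls. The PANETH term recovered 67 of 200 with 4. The simulation had a fixed dispersion of 0.05 and no library, type or cell mix effect. It changed only genes above a minimum mean count, so these rates need not hold for the real libraries. Per-cell values used cells thinned to 2000 UMIs (Python, scipy 1.17.1).

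The genes named are the markers, the fixed lists, the alpha-defensins, the 10 highest and 10 lowest ranked calls per comparison, with a mean of at least 20 CPM and no overlap for the genotype, the 3 largest per direction of each type by genotype term, and the 5 genes most like Lyz1. Genes with model symbols (starting with Gm or AY and a number, or ending in Rik), mitochondrial and ribosomal protein genes were counted but not named by this rule. Members, lists and rules were chosen with earlier results of these data known. Alternatives tried were other scalings, pseudocounts, minimums and folds, DESeq2 1.42.0, leaving out each library, a replicate block and cells of at least 2000 UMIs. Others were thinning, other measures of the nearest profile, and leaving out defensin, mitochondrial and ribosomal protein genes. Free RNA was also subtracted, as a fixed 5% of each sum in the profile of barcodes of 1 to 50 UMIs.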

Additional observations from a re-analysis of the deposited data

Results flagged for a closer look

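The genotype effect (log2, APC-KO minus WT) differed between PANETH-PRE and another type, by the edgeR type by genotype term, for the genes below, which are the 3 largest in each direction. Most rest on few or no UMIs in 1 arm, so the fitted sizes are no bounds, and the UMIs are given with the 2 WT libraries before the 2 APC-KO libraries.

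Against GP, the difference was 8.12 for Slc12a7, an ion cotransporter, with 0, 0, 1 and 33 UMIs in PANETH-PRE and 46, 28, 0 and 10 in GP. It was 7.59 for Chic1 (0, 0, 0 and 36 UMIs in PANETH-PRE) and 4.74 for Tipin, a replication fork protein (1, 0, 0 and 48). In the other direction it was -6.31 for Defa35, -5.45 for Defa27 and -3.18 for Mptx2. Defa35 had 0, 117, 2 and 279 UMIs in PANETH-PRE and 0, 3, 0 and 60 in GP, so its WT libraries differed from each other.

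Against SEC-PRO, the difference was 6.96 for Chic1, 4.42 for Tipin and 4.08 for Dtl, and -6.60 for Defa35, -5.84 for Defa34 and -5.34 for Defa27. Against PANETH, it was 8.02 for Slc12a7, 6.31 for Iigp1 and 4.35 for Tipin, and -8.76 for Tnfsf15, -8.63 for Defa27 and -8.17 for Defa35. Defa27 had 1, 28, 0 and 276 UMIs in PANETH-PRE and 0, 6, 47 and 5195 in PANETH. These results share the PANETH-PRE sums, and reads of near-identical defensins can be split between copies.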

How the results depend on the processing

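With 2 libraries per genotype and 11 PANETH-PRE cells in APC-KO replicate 1, the genotype results carry little precision, and APC-KO replicate 2 decides much of them. Where 1 library was left out of a genotype, its lone partner was assumed to vary like the other group. The cause of the changes below was not tested.

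Requiring 4-fold, 14 genes were higher and 0 lower than in GP, 16 and 42 for SEC-PRO, and 0 and 24 for PANETH. With a minimum of 10 CPM 28 were lower than in GP and 223 lower than in SEC-PRO, and with no minimum 29 and 232. Against PANETH plain CPM gave 393 higher and 25 lower, and the number higher was 4 with a pseudocount of 1 CPM, 10 with thinned cells, 4 with free RNA subtracted and 4 without defensin, mitochondrial and ribosomal protein genes. Leaving out 1 library at a time gave 41 to 73 higher and 16 to 60 lower than in GP, 57 to 152 and 86 to 146 for SEC-PRO, and 2 to 47 and 46 to 74 for PANETH, with the highest number each time without APC-KO replicate 2.

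The genotype comparison called 27 genes with DESeq2 size factors, 19 with the DESeq2 Wald test, 157 with no filter, 28 with thinned cells, 2 with only cells nearest to PANETH-PRE, and 15 to 509 without 1 library. The labels do not say whether replicate numbers pair the libraries. Deviations of replicate 1 from its group mean correlated at r = 0.016 over 5460 genes. With 11 cells in APC-KO replicate 1, that value cannot settle whether they were paired. A fit with a replicate block called 50 genes, 40 of them among the 64. The terms against GP, SEC-PRO and PANETH ran from 3 to 102, 0 to 159 and 3 to 223 calls without 1 library, and were 2, 1 and 0 with the DESeq2 Wald test. The term against GP had 82 calls with DESeq2 size factors.

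Without 1 library at a time, Olfm4's fold change ran from -1.56 to 2.50, and its differences from -0.24 to 2.17 (GP), -0.19 to 1.72 (SEC-PRO) and -1.04 to 3.50 (PANETH). The difference of Mptx2 from GP ran from -3.37 to 4.64 and that of Tipin from PANETH from -3.81 to 8.48. In all of these the sign turned without APC-KO replicate 2. The differences of Defa35 ran from -6.62 to 1.54 (GP), -7.76 to 3.67 (SEC-PRO) and -10.3 to 2.66 (PANETH), and turned without WT replicate 2.

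Cells with Lyz1 were 90.8%, 91.8% and 77.1% without thinning in WT replicates 1 and 2 and APC-KO replicate 2, and 52.3% in the last at 1000 UMIs. Cells with Lyz1 and Zg16 in WT replicates 1 and 2 and APC-KO replicate 2 were 37.7%, 31.6% and 34.4% at 1000 UMIs, and 84.2%, 77.55% and 73.9% without thinning, with 100% in APC-KO replicate 1. Cells with cycle UMIs were 0%, 1.0% and 8.47% at 1000 UMIs, 5.83% in WT replicate 1 with another seed, and 25%, 17.35%, 63.6% and 43.05% in the 4 libraries without thinning.

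With genes of at least 200 CPM, the nearest profile was PANETH-PRE for 66.4%, 64.3% and 41.5% in WT replicates 1 and 2 and APC-KO replicate 2, PANETH for 11.5%, 9.18%, 0% and 0% in the 4 libraries, and GP for 21.3% in WT replicate 1. With Spearman's rho it was PANETH-PRE for 61.5% and 72.4% in WT, PANETH for 10.7%, 5.10%, 0% and 0.332%, and GP for 32.1% and SEC-PRO for 22.4% in APC-KO replicate 2.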

Other observations

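Of 5190 genes compared across the 12 type names, 139 (2.68%) had their highest mean level in PANETH-PRE. Among them, chosen after their values were seen, were Ccl9, with a mean of 1975 scaled CPM against 701 in GP, the next name, and the ribonuclease gene Rnase4, with 1111 against 747 in PANETH. By library, Rnase4 was at 1185, 1491, 1023 and 657.3 in PANETH-PRE and at 751.6, 764.6, 413.5 and 724.0 in PANETH. The order thus turned in APC-KO replicate 2. A4gnt, an enzyme that caps mucin glycans, was at 60.6, 64.0, 10.4 and 31.5 scaled CPM in the PANETH-PRE cells of the 4 libraries and at 36.7, 21.2, 23.6 and 46.5 in PANETH.

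Across PANETH-PRE cells, the Paneth and stem list shares had Spearman rho of -0.21, -0.44, -0.65 and -0.32 in the 2 WT and then the 2 APC-KO libraries. Both are shares of the same 2000 UMIs, so a higher Paneth share leaves fewer UMIs for other lists and can by itself make rho negative. The stem list took 0.0851%, 0.0847%, 0.0616% and 0.157% of PANETH-PRE UMIs, few per cell. Cells of 1 library also share its free RNA, and these values are descriptions.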
